A study of Danio rerio with 13 samples.

Results

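Hotspots of 6mA summits in the interior of zebrafish chromosomes were examined in embryos at 11, 12 and 13 h post fertilization (hpf), and the same places were then looked up at the 64-cell (64C) stage. A hotspot is a bin of 100 kb, counted from position 1, on chromosomes 1 to 25 except chromosome 12. Every hotspot bin lies more than 2 Mb from either end of its chromosome, the end being the last summit of any library. The bins were chosen by the summits of 11, 12 and 13 hpf: a bin had to hold at least 8 of them from the 6 libraries together, from at least 4 of these libraries. Of 11937 eligible bins, 353 met the rule (2.96%), and their members are the 15586 summits of all 8 IP libraries that lie in them, out of 159142 summits in all. The 64C summits were not counted in the choice, and entered it only where the last summit of a chromosome, which sets its end, was one of theirs. The numbers of later summits in these bins follow from the rule and are given as a description.

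All embryos came from the Tubingen line, and no treatment or engineered allele is given for them. The groups are 64C with the SYSY antibody (1 IP library), 64C with the Abcam antibody (1 IP library), and 11, 12 and 13 hpf with the SYSY antibody (2 replicates at each stage). Each later stage has 1 input in the labels, which is taken here to have served both of its replicates, and each 64C library has its own. DNA was pooled from many whole embryos, so that cell types and single embryos cannot be told apart.

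6mA is adenine that carries a methyl group on its N6 nitrogen. It is common in bacterial DNA, where it protects the genome from the cell's own restriction enzymes, and in animals its level and its role are debated. In 6mA-IP-seq, DNA fragments bound by an antibody against 6mA are sequenced beside input DNA, a peak caller finds stretches with more reads in the IP, and the summit is the point of highest enrichment within a peak. The 64-cell embryo is in its rapid cleavage divisions, before broad transcription from the zygotic genome begins, whereas at 11 to 13 hpf the body axis is laid out and somites form.

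For each IP library the authors deposited summits on danRer10, each with a score, the −log10 of its q-value from MACS. The lists hold 79291 summits at 64C with SYSY, 53511 at 64C with Abcam, and between 2439 and 7582 in the 6 later libraries. The lists give no read numbers, so the depth behind them is unknown, and intervals cover counting error only. In the mapping, a read that fitted several places equally well was assigned to 1 of these by chance, and a summit in repeated sequence may therefore stand for another copy. The 64C SYSY list stops short of the end on some chromosomes, and 2 hotspot bins, both on chromosome 4, lie past its last summit there.

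Hotspot bins held 5515 later summits and the other 11584 eligible bins together 7033. By library they held 38.4% of the eligible summits of 11 hpf replicate 1 and 49.4% of replicate 2, 45.1% and 43.2% of the 12 hpf replicates, and 42.0% and 54.7% of the 13 hpf replicates (mean 45.5% ± 5.80, SD, n = 6 libraries). Most other bins were empty, and 8298 of all eligible bins had no later summit at all (69.5%). A hotspot bin had a median of 12 later summits and at most 83. In 202 bins (57.2%) all 6 libraries had a summit, in 104 bins 5 libraries did, and in 47 bins 4 did. Since 4 libraries were required, no bin could lack more than 1 stage, and 1 bin lacked summits at 11 hpf, 2 lacked them at 12 hpf and 11 lacked them at 13 hpf. The 13 hpf lists are also the shortest of all (3476 and 2439 summits), and the part of list length in these counts was not tested. At the threshold, 56 bins had exactly 8 summits, 63 bins with summits of 4 or more libraries were left out with 7, and 6 bins with 8 or more were left out because fewer than 4 libraries had a summit there. Bins with exactly 8 averaged 10.9 summits of the 64C SYSY library and 8.88 of the 64C Abcam library. Those left out with 7 averaged 11.9 and 10.1, and the 6 left out for too few libraries averaged 20.2 and 12.8. The bins just outside thus had no fewer 64C summits than those just inside.

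Since a library that helps to choose a bin must tend to have summits there, each later library was also set against bins chosen by the same rule from the 5 others. Between 215 and 297 bins were then chosen, the fewest without 11 hpf replicate 1, or 2.19% ± 0.243 of the eligible bins (SD, n = 6), and they held 36.4% ± 6.57 of the eligible summits of the library left out (SD, n = 6). The lowest share was 27.4% for 11 hpf replicate 1, which has the longest list, and the highest was 47.4% for 13 hpf replicate 2, which has the shortest. In each of the 6 libraries the share of summits was at least 14.6 times the share of bins. The library left out had a summit in 73.7 to 98.6% of the bins, against 6.27 to 17.7% of all eligible bins. Hotspots chosen in some libraries thus held summits in the library that was not asked. With 1 input listed per later stage, both replicates of a stage are taken to share it. Bins were therefore also chosen from the 4 libraries of the other 2 stages, which have other inputs, with at least 5 summits from at least 3 libraries. They made up 2.58 to 4.05% of the eligible bins and held 31.7 to 55.6% of the summits of the libraries left out, or 10.7 to 15.5 times their share of bins.

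**Figure D1:**
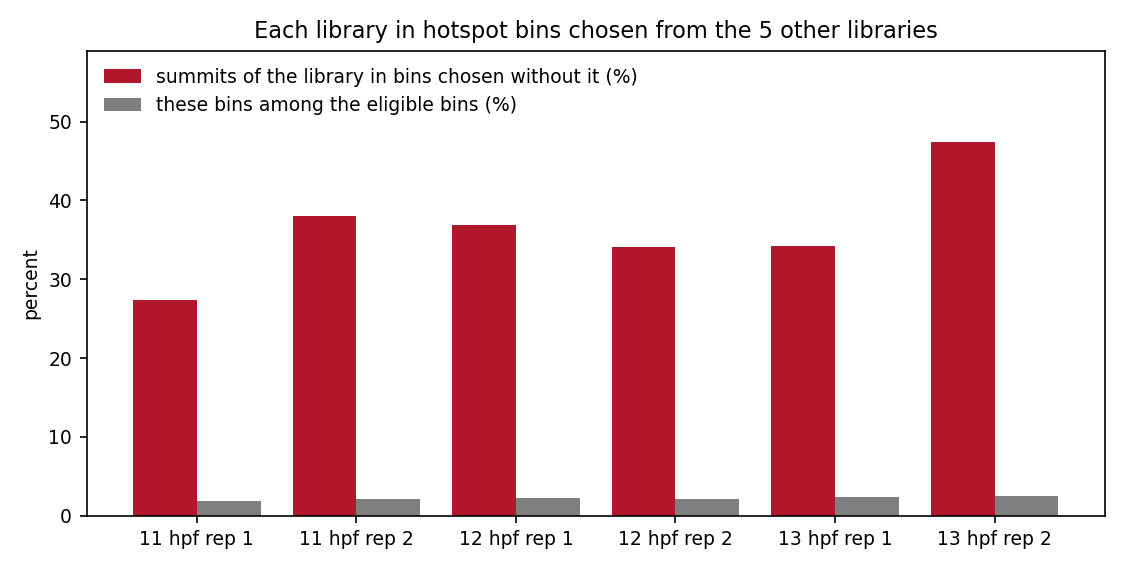
Percent of the eligible summits of each library at 11, 12 and 13 hpf that lie in hotspot bins chosen from the 5 other libraries (red), beside the percent of eligible bins that these make up (grey). The red bars run from 27.4% to 47.4% and the grey bars reach at most 2.49%.

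By stage, the mean held-out share was 32.7% ± 7.56 for the 11 hpf libraries, 35.5% ± 1.91 for the 12 hpf libraries and 40.9% ± 9.32 for the 13 hpf libraries (SD of 2 replicates). The replicates of 11 hpf and those of 13 hpf lay further apart than the stages, and an exact permutation test over the 15 ways to pair the 6 libraries gave p = 0.733. The smallest p that this design allows is 0.0667. No difference between the stages was thus shown. The replicates of a stage are named as biological replicates, from embryos frozen until enough had been collected, and whether they came from separate matings is not given in the sources used here, so that p-values measure the spread between these libraries only.

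Within a hotspot bin the summits were seldom spread over the whole 100 kb. The shortest window with at least 80% of the later summits of a bin had a median length of 2183 bp, with quartiles at 621 and 21767 bp. It was within 1000 bp in 135 bins (38.2%), within 10000 bp in 228 bins (64.6%) and over 50000 bp in 26 bins. When summits of the 6 libraries were chained within 250 bp of each other, the hotspots held 1290 regions, with a median of 3 per bin. In 56 bins every later summit lay in 1 region, 102 bins had 5 regions or more, and the most was 15. The busiest region of a bin had a median of 59.4% of its later summits. The typical hotspot is therefore 1 or a few short stretches, and a smaller group of bins holds several separate stretches. The 353 bins form 319 runs, of which 290 are single bins, 24 are pairs and 5 are triples. Most hotspots thus stood alone, and 63 had a hotspot as a neighbour. Of all eligible bins 2.96% are hotspots, and whether neighbours qualified together more often than this share would give was not tested.

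Many of these regions were found in library after library. Of the 1290 regions, 149 had a summit of all 6 later libraries, 128 of 5 and 140 of 4, while 489 had a summit of 1 library. In the other eligible bins, 9 of 4625 regions had all 6, a contrast that the rule itself favours. The regions with all 6 libraries had a median length of 364 bp and ran from 6 to 2556 bp. In 14 of them each library had exactly 1 summit. There the 6 positions lay within a median of 22.5 bp and at most 145 bp of each other. In these regions the 3 stages thus had their summits close together, which the chaining within 250 bp and the choice of 1 summit per library favour.

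The regions with the most later summits are called arrays here. Regions with 20 or more later summits numbered 28, in 25 bins, and held 857 summits. Consecutive summits of 1 library within them were a median of 159 bp apart, and 80% of the spacings lay between 79.0 and 329 bp. Over all regions of the hotspot bins, these included, the median was 164 bp, with 80% between 76.2 and 335 bp. The 28 regions gave 693 of the 2013 spacings. Chaining within 250 bp also limits the spacing in both sets, so that no trait of arrays is read from it. The largest is on chr10:17301546-17304101, 17.3 Mb from the nearer end. In its 2556 bp and up to 250 bp on either side, 18 summits were called at 64C with SYSY and 18 with Abcam, 13 and 14 in the replicates of 11 hpf, 14 and 17 in those of 12 hpf, and 12 and 11 in those of 13 hpf. All 8 libraries thus had more than 10 summits in this stretch, and its bin of 83 later summits ranks first of all hotspots. The second is on chr13:5609609-5611721, where the libraries had 13 and 16 summits at 64C with SYSY and Abcam, 9 and 10 in the replicates of 11 hpf, 13 and 12 in those of 12 hpf, and 4 and 6 in those of 13 hpf. This array had fewer summits at 13 hpf than at the other stages in both replicates. The whole lists of these replicates are also the shortest of all (3476 and 2439). The third, on chr3:5188333-5190230, had 16 summits at 64C with SYSY and 6 with Abcam, 12 and 11 in the replicates of 11 hpf, 4 and 4 in those of 12 hpf, and 8 and 7 in those of 13 hpf. Its number was lowest at 12 hpf in both replicates. The fourth, on chr19:40295650-40297512, had 16 and 13 summits at 64C with SYSY and Abcam, 12 and 8 in the replicates of 11 hpf, 7 and 7 in those of 12 hpf, and 5 and 3 in those of 13 hpf. The stages kept a falling order in this array, and the whole lists shorten from stage to stage in the same order. The part of list length in the numbers of single arrays was not tested. These 4 arrays were picked for their number of later summits, so that the orders are a description of single places, and they differ from array to array. A peak can hold several summits, and the 81, 54, 46 and 42 later summits of the 4 arrays came from 48, 34, 35 and 29 peaks.

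**Figure D2:**
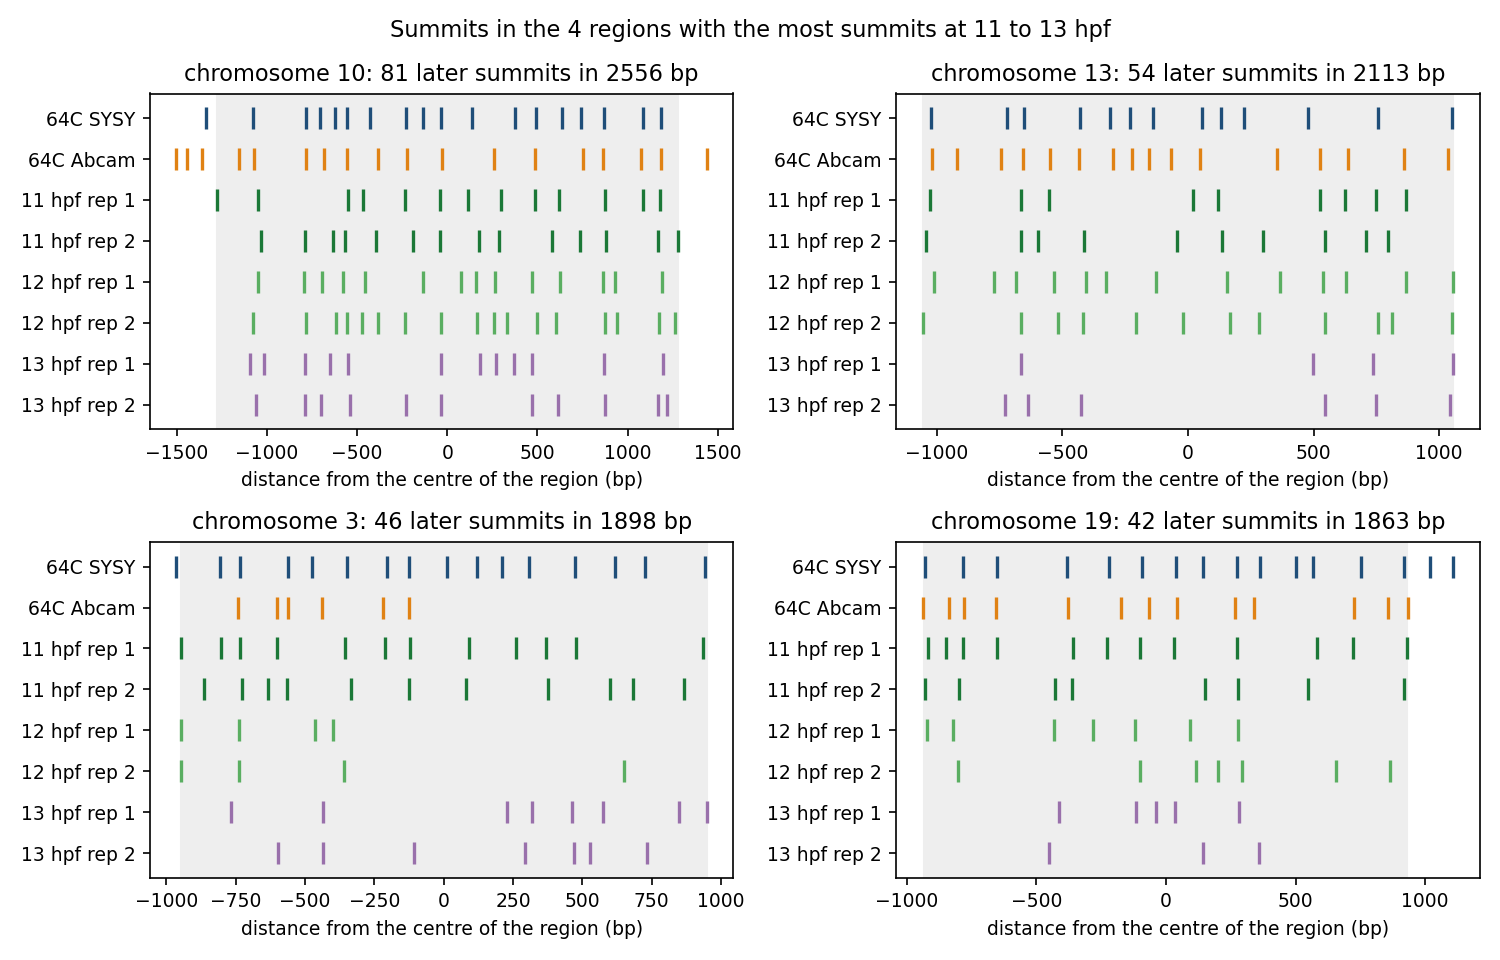
Summits of the 8 IP libraries (rows, 64C to 13 hpf) in the 4 regions with the most later summits, by distance in bp from the centre of the region, with each summit drawn as a tick and the region shaded. Rows of ticks fill each region in the 64C SYSY library and at 11 hpf, while the Abcam library covers part of the chromosome 3 region with 6 summits.

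Of the 10 bins with the most later summits, some were 1 array and others several. The bin on chr10:17300001-17400000 had 97.6% of its 83 later summits in the array above, and the bin on chr13:5600001-5700000 had all 54 of its later summits in 1 region. On chromosome 24, the bin from 2900001 to 3000000 had 74 later summits in 5 regions, all between 2924490 and 2928428, which is close to 1 broken array. In the whole bin the libraries had 32 summits at 64C with SYSY, 27 with Abcam, 12 and 16 in the replicates of 11 hpf, 14 and 16 in those of 12 hpf, and 8 and 8 in those of 13 hpf. On chromosome 8, the bin from 16500001 to 16600000 had 62 later summits in exactly 2 regions, with 29 summits between 16525306 and 16526132 and 33 between 16537336 and 16538139. On chromosome 20, the bin from 52500001 to 52600000 spread 47 later summits over 12 regions, of which the largest had 11. The other 5 bins of these 10 were on chromosome 5 from 3300001, chromosome 3 from 56700001 and from 3700001, chromosome 2 from 47400001 and chromosome 15 from 5000001, with 69, 68, 63, 55 and 49 later summits.

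The 64C libraries, which the rule did not use, had many summits in the same bins. The SYSY library had a mean of 16.3 summits per hotspot bin and 4.49 per other eligible bin, with medians of 13 and 2. Its density was 3.64 times as high in hotspot bins (3.54 to 3.74, from the 95% exact binomial interval of the share of summits in hotspots). The Abcam library had a mean of 12.2 per hotspot bin and 2.44 per other bin, with medians of 10 and 1, a ratio of 4.99 (4.83 to 5.15). Summits within a bin are not independent of each other, so that these intervals are too narrow for anything but counting. At least 1 SYSY summit was present in 351 hotspot bins (99.4%), against 83.7% of the other bins, and at least 1 Abcam summit in 339 (96.0%), against 67.3%. No hotspot bin was without a 64C summit of either antibody, whereas 8.53% of the other bins were. Counting as called a bin with at least 2 times the mean of its list over eligible bins, that is 10 summits or more for SYSY, 245 of the 353 hotspot bins were called (69.4%), against 9.25% of all eligible bins. For Abcam, where 6 summits sufficed, 259 were called (73.4%), against 14.5% of all eligible bins. The high numbers at 64C thus extended to most hotspots with either antibody.

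**Figure D3:**
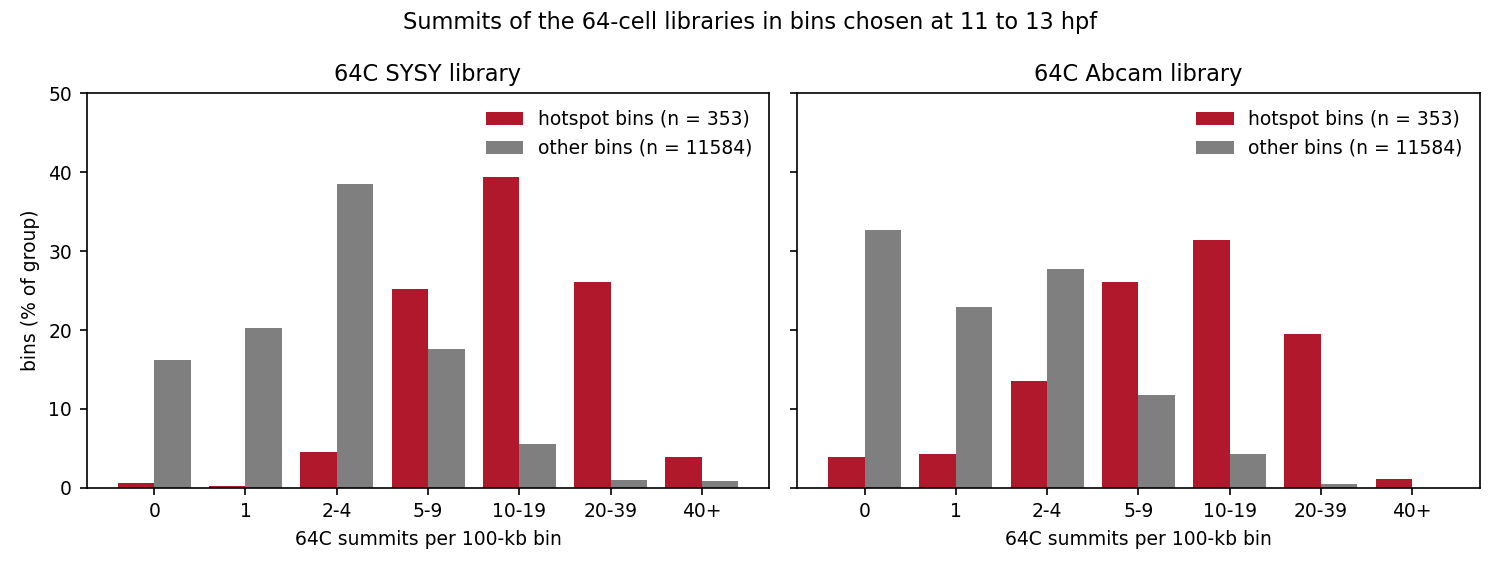
Percent of hotspot bins (red) and of other eligible bins (grey) with a given number of 64C summits, for the SYSY library on the left and the Abcam library on the right. Most hotspot bins have 5 summits or more with either antibody, and most other bins have fewer than 5.

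At the extremes, some bins are dense in the 64C SYSY list alone, meaning at least 20 SYSY summits, and at least 10 times a number that is 1 more than the Abcam summits. These were 132 of the 11937 eligible bins and 6 of the 353 hotspots, and the 6 are not read as a trait of hotspots. The 3 hotspots with the most 64C summits were on chr8:12800001-12900000, chr1:51700001-51800000 and chr3:45900001-46000000. They had 86, 84 and 86 summits with SYSY, but 10, 11 and 6 with Abcam and 19, 41 and 9 later summits, so that their rank at 64C came from the SYSY library. The 3 with the fewest were on chr11:8300001-8400000, chr3:44300001-44400000 and chr25:24800001-24900000. They had 1, 3 and 2 SYSY summits and 0, 0 and 2 Abcam summits at 64C, against 10, 8 and 8 later summits.

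The antibodies parted in some hotspots. In 14 bins (3.97%) the Abcam library had no summit, against 32.7% of the other bins, so that such bins were rarer among hotspots. In these 14 the SYSY library had 1 to 23 summits at 64C (median 11.5) and the later libraries together up to 49. The busiest of these was on chr15:5000001-5100000. There the libraries had 12 summits at 64C with SYSY, 0 with Abcam, 6 and 9 in the replicates of 11 hpf, 8 and 9 in those of 12 hpf, and 9 and 8 in those of 13 hpf. In its main region, from 5029609 to 5030467, the best score was 59.6 at 64C with SYSY and between 17.8 and 25.8 in the later libraries. The bin on chromosome 8 with 2 regions was of the same kind, with 17 SYSY summits and 1 Abcam summit at 64C. In the other direction, 115 of the 353 hotspot bins had more Abcam than SYSY summits at 64C. The same count is not given for other bins, so that it is not read as a trait of hotspots. Only 2 hotspot bins had Abcam summits and no 64C SYSY summit, with 24 and 17 Abcam summits, and these are the 2 bins of chromosome 4 past the end of the SYSY list. With 1 library per antibody, a difference between antibodies cannot be told apart from one between libraries.

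The match between stages was one of position and not only of bin. Of the 64C SYSY summits in hotspot bins, 3109 of 5769 lay within 250 bp of a later summit (53.9%, 95% exact interval 52.6 to 55.2%), against 5682 of 52011 in other eligible bins (10.9%, 10.7 to 11.2%). Of the 64C Abcam summits it was 2452 of 4302 (57.0%, 55.5 to 58.5%), against 5717 of 28302 in other bins (20.2%, 19.7 to 20.7%). Other bins have few later summits by the rule, so that a lower share there is partly built in. The reverse count depends less on the number of later summits, but the rule also selected bins where summits recur and score higher, which can raise it. Of the later summits in hotspot bins, 95.5% ± 0.915 lay within 250 bp of a 64C SYSY summit, against 74.3% ± 4.21 of those in other eligible bins (SD, n = 6 libraries). For the 64C Abcam library it was 75.8% ± 2.18, against 68.2% ± 3.44. With SYSY the libraries ran from 94.4 to 96.8% in hotspots and from 67.7 to 79.1% elsewhere, and did not overlap. With Abcam they ran from 72.3 to 78.1% and from 63.4 to 73.1%, and overlapped, although the share was higher in hotspots in each of the 6 libraries. The bases within 250 bp of a 64C SYSY summit made up 4.85% of the hotspot bins and 1.58% of the other bins, and for Abcam 3.39% and 0.885%, so that the shares of summits were far above the shares of bases in both kinds of bin.

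**Figure D4:**
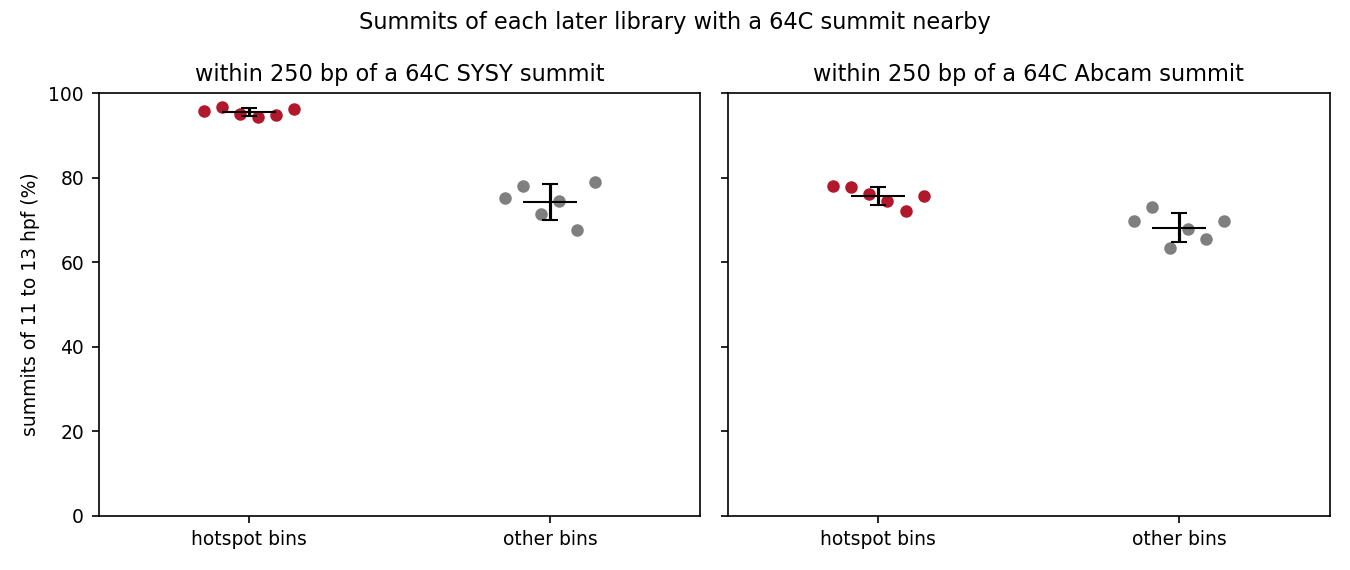
Percent of the summits of each library at 11, 12 and 13 hpf with a 64C SYSY summit (left) or a 64C Abcam summit (right) within 250 bp, in hotspot bins (red) and other eligible bins (grey); points are the 6 libraries, and bars give the mean and SD. With SYSY every library in hotspots is at 94.4% or more and every one elsewhere at 79.1% or less, while with Abcam the points overlap.

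In bins with most later summits in a short window the 64C summits were drawn to the same window. The 228 bins whose 80% window was within 10000 bp held 3152 SYSY summits at 64C. Of these, 1537 lay in the window or within 250 bp of it (48.8%). For Abcam it was 1064 of 2197 (48.4%). These windows with their flanks make up 2.20% of the length of the bins. A 64C SYSY summit was in the window in 226 of the 228 bins and an Abcam summit in 186. The remaining 64C summits, somewhat more than those in the windows, lay elsewhere in the same bins. Hotspots with more separate regions also had more 64C summits. The 56 bins with 1 region averaged 8.79 SYSY and 6.55 Abcam summits, the 195 bins with 2 to 4 regions 13.7 and 10.1, and the 102 bins with 5 or more regions 25.5 and 19.2. Bins of the last class also had more later summits (median 17, against 10 with 1 region) and lay nearer to an end (median 3.77 Mb, against 6.45 Mb), and the part of either in their 64C numbers was not tested.

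Regions with a summit of all 8 libraries numbered 129 in hotspot bins, with summits of every library chained within 250 bp, and 6 in the other eligible bins. Such a region needs a summit of all 6 later libraries, so that the rule itself favours this contrast. The 129 regions lie in 120 hotspots on 24 chromosomes, with a median length of 780 bp. For the 5 with the best mean percentile of score, each percentile taken among the eligible summits of the library, the positions are chr18:5124970-5126283, chr5:3324303-3325537, chr6:8392301-8393145, chr20:53243518-53244164 and chr13:49204159-49204793. On chromosome 18, the best scores were 114 at 64C with SYSY and 13.5 with Abcam, 28.8 and 32.5 in the replicates of 11 hpf, 21.1 and 16.6 in those of 12 hpf, and 17.4 and 16.1 in those of 13 hpf. The lowest of these, with Abcam, was at percentile 96.9 of its own library. On chromosome 6, they were 95.9 at 64C with SYSY and 18.9 with Abcam, 21.6 and 21.3 in the replicates of 11 hpf, 9.50 and 26.4 in those of 12 hpf, and 11.5 and 22.6 in those of 13 hpf.

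Scores as a whole were higher in hotspots. At 64C with SYSY the median score was 6.73 in hotspot bins, against 5.68 in other eligible bins, and with Abcam it was 5.83, against 5.74. Within hotspot bins, 64C SYSY summits within 250 bp of a later summit had a median score of 8.68 and the rest 4.68. In other bins the same split gave 6.73 and 5.18. For Abcam it gave 6.20 and 5.17 in hotspots and 6.03 and 5.49 elsewhere. The 64C summits of hotspots that recurred later were thus the more significant ones. In percentiles of their own library the medians were 69.2 and 40.9 with SYSY and 59.2 and 45.6 with Abcam, a wider margin with SYSY. In the later libraries the median score was 4.78 ± 0.238 in hotspots, against 3.82 ± 0.157 elsewhere (SD, n = 6 libraries), and it was higher in hotspots within each library. The later scores are a description, since a bin with stronger enrichment is more likely to collect 8 summits. Peaks with more than 1 summit made up 22.5% ± 4.48 of the later summits in hotspots, against 1.70% ± 0.533 elsewhere (SD, n = 6), which the rule also favours. At 64C they made up 53.1% with SYSY in hotspots, against 36.4% elsewhere, and 62.6% with Abcam, against 41.0%. Very broad peaks of 5 or more summits held 22.0% of the hotspot summits in both 64C lists, against 17.8% elsewhere with SYSY and 8.0% with Abcam.

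Although the ends of the chromosomes had been left out, hotspots were most frequent near them. From 2 to 5 Mb from the nearer end, 155 of 1440 eligible bins were hotspots (10.8%). From 5 to 10 Mb it was 109 of 2400 (4.54%), from 10 to 15 Mb 34 of 2400 (1.42%), and further in 55 of 5697 (0.965%). The median distance from the end was 5.50 Mb for hotspot bins and 14.7 Mb for other bins. At 64C the Abcam library followed the same gradient within hotspots, with a mean of 15.5 summits per hotspot bin from 2 to 5 Mb, 11.9 from 5 to 10 Mb, 9.26 from 10 to 15 Mb and 5.27 further in. Other bins had 4.63, 3.01, 2.39 and 1.74. The median in hotspots fell likewise, with 13, 10, 8.5 and 4 Abcam summits in the 4 classes. The SYSY library had means of 17.3, 15.6, 12.8 and 17.3 summits per hotspot bin, against 5.53, 4.66, 4.50 and 4.18 in other bins, but medians of 15, 14, 9 and 10 in hotspots. In the innermost class, 5 of the 55 bins held 334 of the 950 SYSY summits, with 49 to 86 SYSY summits and 2 to 7 Abcam summits each. Without these bins, an alternative added after seeing the data, the mean was 12.3. The other classes were not trimmed in this way, so that 12.3 cannot be set against their means. By the median, hotspots in the middle of the chromosomes thus had fewer 64C summits of either antibody than those near the ends. The medians of other bins were 4, 2, 2 and 2 with SYSY and 3, 1, 1 and 1 with Abcam, so that a fall from the outermost class was not particular to hotspots. In each class either library had at least 2.85 times as many summits in hotspot bins as in other bins. Weighted over the classes, an alternative chosen after seeing the data, the ratio was 3.30 for SYSY and 3.52 for Abcam, so that the Abcam ratio of 4.99 fell by more than the SYSY ratio of 3.64 when distance was held equal. Of the 14 hotspots without Abcam summits, 7 lay more than 10 Mb from the end. Of all 353 hotspots, 34 lay 10 to 15 Mb from the end and 55 further in. Of all 11937 eligible bins, these 2 classes had 2400 and 5697.

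**Figure D5:**
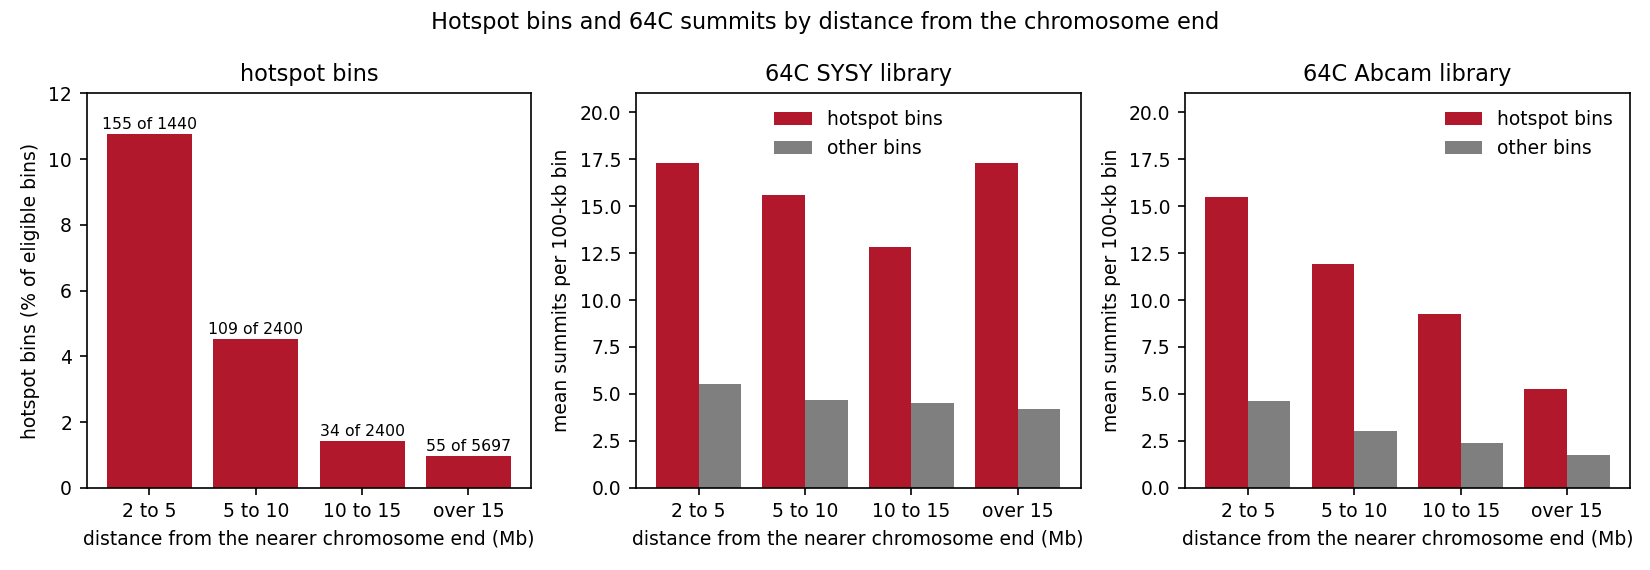
Hotspot bins as a percent of eligible bins (left) and mean 64C summits per bin in hotspot bins (red) and other bins (grey) for the SYSY and Abcam libraries, in 4 classes of distance in Mb from the nearer chromosome end. Hotspots fall from 10.8% to 0.965% of bins toward the middle, and the Abcam mean in hotspots falls from 15.5 to 5.27 while the SYSY mean starts and ends at 17.3. In the last class, 5 of 55 bins held 334 of the 950 SYSY summits (mean 12.3 without them).

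Every chromosome examined had hotspots. They were most frequent on chromosome 24, with 21 of 382 eligible bins (5.50%), and chromosome 25, with 18 of 328 (5.49%). Chromosome 15 had 21 of 437 (4.81%) and chromosome 20 had 23 of 513 (4.48%). They were least frequent on chromosome 2, with 7 of 555 (1.26%), chromosome 14, with 8 of 479 (1.67%), and chromosome 4, with 14 of 726 (1.93%). Chromosomes 24 and 25 are among those with the fewest eligible bins, but so is chromosome 22, which had 10 of 352 (2.84%). The part of chromosome length in this order was not tested. The long arm of chromosome 4, known in zebrafish for late replication and repeated sequence, was not set apart here.

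To ask whether the stages differed in which regions of the hotspots were found, in bins chosen from these same 6 libraries by a rule that does not use their stage, regions present in both libraries of a pair were divided by regions present in either (Jaccard index). The replicates shared 48.6% at 11 hpf, 42.6% at 12 hpf and 43.9% at 13 hpf, and the 12 pairs of libraries from different stages shared between 36.1 and 44.6%. The means were 45.0% and 39.2%, a difference of 5.88 percentage points. The replicates of 12 hpf shared less than each of the 11 hpf replicates shared with replicate 2 of 12 hpf. Among the 15 ways to split 6 libraries into pairs, the true one gave the largest difference, and the exact test by permutation (one-sided) had p = 0.0667, which no result of this design can go below. Without 11 hpf replicate 2 the same exact permutation test gave p = 0.133. The margin toward the same stage was thus small beside the shares themselves, and 6 libraries cannot place it below the usual threshold. Replicates of a stage are taken to share an input, so that stage and input cannot be told apart in this margin.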

How the data were processed

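6mA-IP-seq was analysed in 8 IP libraries of zebrafish embryos, and the 5 inputs entered through the authors' peak calls. Reads had been aligned to danRer10 by the authors (Bowtie 1.0 and MACS2 are named in the submitters' processing notes), and peaks were kept at a false discovery rate of 0.01, IP against input, for every library on its own. The deposited values are the −log10 of the q-value of each summit, which depends on depth. Scores of hotspot and other bins were compared within a list. Their medians were also averaged over the later lists, and best scores of single regions are listed side by side, as a description. Samples were grouped by stage, antibody and replicate from their titles.

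Summit positions, counted from 1, were assigned to bins of 100 kb. The members and lists were chosen with earlier results of these data known. Named regions are the 10 hotspots with the most later summits, the 3 with the most and the 3 with the fewest 64C summits, and the 5 best-scoring regions of 8 libraries. The 4 largest arrays, the bins without Abcam summits, the 80% windows and the distance classes were chosen after values were seen. Bin choice, the 64C density ratios and the permutation test of region sharing were tested on simulated lists. The permutation test of the held-out share was not checked in this way. Alternatives were other bins, thresholds and margins, score filters, 1 summit per peak, equal list lengths, matching distances, bins and chromosomes left out, each replicate left out, and a replicate block. No gene, repeat or genome sequence of danRer10 was used here, so that genes and sequences are not given. The computing used SciPy 1.17.1, pandas 2.3.3 and NumPy 2.4.6 under Python 3.11.15, with matplotlib 3.10.9 for plots.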

Additional observations from a re-analysis of the deposited data

How the results depend on the processing

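The 64C density ratios, the shares of 64C summits near a later summit and the difference in region sharing kept their direction under all alternatives run for them. The held-out share is given below without the share of bins beside it, so that no direction is read from it. The number of hotspots was 180 with at least 12 summits, 145 with scores at or above the list median, 160 with 2439 summits from every later list, and 215 to 297 with each replicate left out, the lowest without 11 hpf replicate 1. Later summits in hotspots, 45.5% as reported, were 52.2% with 200-kb bins, 53.6% with at least 6 and 32.5% with at least 12 summits, 53.0% with a margin of 1 Mb, 38.3% with the score filter, 38.1% with equal lists, and 37.2 to 41.4% with a replicate left out. The held-out share, 36.4% as reported, was 26.8% with at least 12 summits, 43.8% with a margin of 1 Mb, 29.6% with the score filter, 43.0% with bins from the other 2 stages at lower thresholds (at least 5 summits from at least 3 libraries), and 28.4 to 30.2% with a replicate left out, when 4 libraries choose the bins. The SYSY ratio was 2.51 with 200-kb bins, 3.90 with bins shifted by 50 kb, 3.29 and 4.40 with at least 6 and 12 summits, 4.06 with a margin of 1 Mb, 5.38 with the score filter, 3.18 with 1 summit per peak, 4.31 with equal lists, 4.70 without bins dense in 64C SYSY alone, 3.83 to 4.04 with a replicate left out and, chosen after seeing the data, 3.30 within distance classes. The Abcam ratio was 3.78 with 200-kb bins, 4.69 and 5.66 with at least 6 and 12 summits, 6.02 with a margin of 1 Mb, 5.55 with the score filter, 3.93 with 1 summit per peak, 5.34 with equal lists, 5.08 to 5.24 with a replicate left out and 3.52 within distance classes. The share of 64C SYSY summits near a later one was 45.0% with 200-kb bins, 51.0% with bins shifted by 50 kb, 51.9% and 56.8% with at least 6 and 12 summits, 52.0% with a margin of 1 Mb, 60.0% with the score filter, 41.3% with 1 summit per peak, 46.0% with equal lists, 40.8% and 66.7% within 100 and 1000 bp, and 50.4 to 53.9% with a replicate left out. The Abcam share was 47.3% with 200-kb bins, 54.4% and 61.6% with at least 6 and 12 summits, 54.8% with a margin of 1 Mb, 55.5% with the score filter, 47.2% with 1 summit per peak, 48.8% with equal lists, 42.4% and 71.3% within 100 and 1000 bp, and 53.1 to 57.8% with a replicate left out. With only bins before the last 64C SYSY summit of a chromosome, also chosen after seeing the data, there were 351 hotspots and the ratios were 3.62 for SYSY and 4.98 for Abcam. The cause of these moves was not tested.

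Replicate numbers are shared between stages in the labels, but same-numbered libraries deviated together over hotspot bins for 11 with 13 hpf only (r = 0.209, a description), and not for 11 with 12 hpf (r = −0.0500) or 12 with 13 hpf (r = −0.0943). Since not every pair of stages showed it, the numbers were not taken to pair the libraries. With the number as a replicate block the difference in region sharing was 5.97 percentage points (exact permutation test, p = 0.167, the smallest that 6 orders allow), and the held-out share gave p = 0.667 by the exact permutation test. With a replicate left out the range of the stage means was 3.26 to 14.0 percentage points and the difference in region sharing 5.02 to 7.76.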
